A study of Homo sapiens with 6 samples.

Results

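The FGF and HGF ligands and receptors of CCD18Co fibroblasts were described with and without silencing of *LTBP2*. They are the 5 FGF ligands *FGF1*, *FGF2*, *FGF5*, *FGF7* and *FGF10*, the receptors *FGFR1*, *FGFR2* and *FGFRL1*, the ligand *HGF* and its receptor *MET*. They were chosen by symbol, with earlier results of these data known. All 10 genes were found among the 60663 of the deposited count table, and 8 of them were among the 16920 genes that passed the filter on low counts and were tested. CCD18Co is an established line of human colon fibroblasts, and *LTBP2* encodes a secreted protein of the extracellular matrix. The cells of all 6 libraries went through a 6 h lipofection with siRNA and were frozen 48 h later. For 3 libraries the siRNAs were the pool against *LTBP2* (siLTBP2), and for the other 3 they were a non-targeting pool (siNT). Untransfected cells were not analysed here, only 1 pool was used against *LTBP2*, and 1 line stands for all fibroblasts. The labels do not say whether the replicates were separate cultures, so the p-values measure the spread between these libraries, which may be technical.

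Fibroblast growth factors are secreted signals that bind receptor tyrosine kinases together with heparan sulfate, the sugar chain of cell surface proteoglycans. Ligand binding switches on the RAS and ERK kinase cascade, which in turn induces ETV transcription factors and a set of feedback inhibitors. FGF7 and FGF10 are classical messages from the stroma to the epithelium, read there by a splice form of FGFR2 typical of epithelial cells, whereas FGF1 and FGF2 also act on mesenchymal cells through FGFR1. Hepatocyte growth factor (HGF) is another fibroblast product. It is secreted as an inactive precursor, is cut by serine proteases, and binds the receptor tyrosine kinase MET, which is best known from epithelial and cancer cells.

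Between 44663424 and 53576899 reads per library were assigned to genes. Levels are given as CPM, the counts relative to the TMM-normalised library total, and levels of different genes are compared only per length, as FPKM, the same value divided by the length of the merged exons in kilobases. A count of 3, taken here as the limit of detection, is worth 0.0556 to 0.0688 CPM depending on the library. *LTBP2* itself was at 25.0, 23.1 and 21.2 CPM in siNT and at 6.49, 8.61 and 6.00 CPM in siLTBP2, and its log2 fold change was -1.72 (adjusted p = 6.6e-05 by edgeR's quasi-likelihood test with Benjamini-Hochberg adjustment). The 8 fibroblast markers, collagens among them, summed to 9602 to 12770 CPM in siNT and 9723 to 13740 CPM in siLTBP2, and 0 of them were higher and 1, *PDGFRB*, lower by edgeR. The 6 epithelial markers summed to at most 4.47 CPM in any library, with *KRT20* at 0 throughout, and the 5 blood markers to at most 0.486 CPM. The 5 endothelial markers summed to 59.9 to 83.5 CPM, nearly all of it *TEK*, with *PECAM1*, *CDH5* and *CLDN5* at means of at most 0.119 CPM. The 5 mural cell markers summed to 57.3 to 90.2 CPM, mostly *ACTA2*, with *MYH11*, *DES* and *CNN1* at means of at most 0.0917 CPM. Their part in the results was not tested. In bulk libraries, more cells that express a gene and more RNA per cell cannot be told apart.

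The growth factor genes changed in opposite directions upon *LTBP2* silencing. *FGF1*, *FGF5*, *FGF2* and *MET* were higher in siLTBP2, *FGF7* was lower, and *FGFR1*, *FGFRL1* and *HGF* did not pass the test. Of the 8 tested genes, 4 were thus higher at an adjusted p below 0.05, compared with 9.76% of all tested genes, and 1 was lower, compared with 9.51%. Genes that changed over 2-fold with an adjusted p under 0.01 are called deregulated here, after the study's thresholds. They were *FGF1*, *FGF5* and *MET*, all higher, while 2.57% of all tested genes were deregulated in either direction and 1.29% were deregulated and higher. The levels of the 2 groups did not overlap in 5 of the 8 genes, compared with 37% of all tested genes. The median log2 fold change of the 8 genes was 0.30, and that of all tested genes was -0.01. Because the genes were chosen with earlier results of these data known, these comparisons are a description and do not test for an excess.

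**Figure D1:**
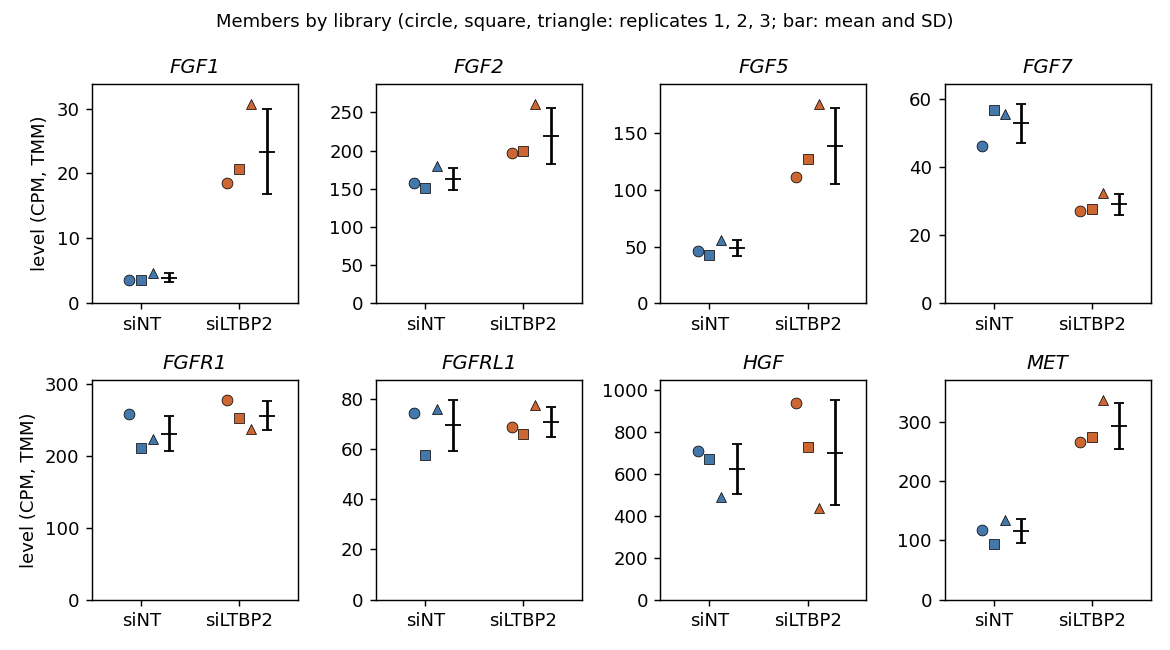
Level of each of the 8 tested genes in each library, in TMM-normalised CPM on linear axes that start at 0. Circles, squares and triangles are replicates 1, 2 and 3, and the black bars are the mean and SD of 3 libraries. The groups are separate for FGF1, FGF2, FGF5, FGF7 and MET, and overlap for FGFR1, FGFRL1 and HGF.

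The sequences just upstream of these genes are shown for *FGF1*, *FGF5* and *MET*, the 3 deregulated genes, and for *FGF7*, which moved the other way. Each is the 250 bases before a transcription start in the RefSeq annotation of GRCh38.p14, read 5′ to 3′ on the strand of the gene. The window of *FGF5* start 1, chr4:80266338-80266587 on the plus strand, and the *MET* window, chr7:116671946-116672195 on the plus strand, are rich in G and C, at 68.8% and 68.4%, with 27 and 24 CpG dinucleotides. The window of *FGF5* start 2, not shown, has 47.2% G and C and 3 CpG dinucleotides. The *FGF7* window, chr15:49422992-49423241 on the plus strand, has 38.4% G and C and 2 CpG dinucleotides. The median over 35116 human promoter windows of this length is 58% and 11. *FGF1* has 4 annotated starts and *FGF5* has 2, and the counts per gene do not tell which one was used. The window of *FGF1* start 4, chr5:142644240-142644489 on the minus strand, has 47.2% G and C. It is the only *FGF1* window with a motif match, so it does not stand for the other starts. Those of starts 1, 2 and 3, not shown, have 44.8%, 45.6% and 60.8% G and C. Capitals mark matches to the motifs described below, and the other 3 sequences hold none.
FGF5 promoter, start 1: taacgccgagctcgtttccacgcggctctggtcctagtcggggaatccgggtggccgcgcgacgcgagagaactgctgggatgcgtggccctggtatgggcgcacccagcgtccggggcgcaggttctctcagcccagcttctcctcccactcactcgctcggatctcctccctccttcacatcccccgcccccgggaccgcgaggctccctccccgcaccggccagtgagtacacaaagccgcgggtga
MET promoter: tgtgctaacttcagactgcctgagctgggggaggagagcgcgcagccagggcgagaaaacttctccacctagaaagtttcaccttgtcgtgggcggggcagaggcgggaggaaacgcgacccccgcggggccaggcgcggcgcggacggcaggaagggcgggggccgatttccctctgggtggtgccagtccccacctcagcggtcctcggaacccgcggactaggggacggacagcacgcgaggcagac
FGF7 promoter: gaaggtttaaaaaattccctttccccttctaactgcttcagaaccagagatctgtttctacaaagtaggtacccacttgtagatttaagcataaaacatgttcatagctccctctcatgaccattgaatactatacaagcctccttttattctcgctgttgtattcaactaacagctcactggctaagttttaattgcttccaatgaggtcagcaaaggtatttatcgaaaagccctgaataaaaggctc
FGF1 promoter, start 4: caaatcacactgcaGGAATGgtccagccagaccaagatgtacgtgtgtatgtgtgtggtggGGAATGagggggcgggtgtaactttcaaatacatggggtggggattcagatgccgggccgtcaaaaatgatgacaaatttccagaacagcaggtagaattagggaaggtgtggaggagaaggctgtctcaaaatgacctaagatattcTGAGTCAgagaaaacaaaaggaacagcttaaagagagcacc

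Both strands of 17 such windows, belonging to 9 of the 10 genes, were searched for 5 motifs. They were the AP-1 motif TGANTCA, the TEAD motif GGAATG, the TATA box TATAAA, the ETS motif CCGGAAGT and the E-box CACGTG. The window of *FGF1* start 4 held 1 AP-1 match, which begins 41 bases before the start, and 2 TEAD matches, which begin 236 and 189 bases before it. An AP-1 match was thus in 1 of the 17 windows, and 6.57% of all 35116 windows have one. The TEAD motif was in 4 windows, those of *HGF* and *FGF1* and 2 of the 5 starts of *FGFR2*, and is in 11.9% of all windows. The TATA box was only in the window of *FGF5* start 2, at 2 overlapping positions that begin 215 and 213 bases before the start, on opposite strands. The E-box was only in the window of *FGFRL1*. These motifs are in 10.7% and 6.34% of all windows. None of the 17 windows held the ETS motif, which is in 3.42% of all windows. A match is a description of the letters and not a binding site.

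*FGF1* (ENSG00000113578, chr5:142592178-142698070, minus strand, 4 exons) encodes acidic FGF, a ligand for all FGF receptors. Its level was 3.53, 3.58 and 4.73 CPM in siNT, against 18.5, 20.7 and 30.8 CPM in siLTBP2. The lowest siLTBP2 library was 3.92 times the highest siNT library, and the third siLTBP2 library was the highest. The mean rose from 3.95 ± 0.679 to 23.4 ± 6.51 CPM (SD, n = 3 libraries per group). The log2 fold change was thus 2.56 (95% interval 2.11 to 3.01, standard error 0.204, edgeR adjusted p = 4.54e-05), or 5.91-fold. It was the largest change among the 8 genes, and *FGF1* ranked 36 by p-value among all 16920 genes. The raw counts behind these values were 163, 177 and 255 in siNT and 808, 981 and 1621 in siLTBP2.

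An antisense RNA of a neighbouring gene, *SPRY4-AS1*, lies opposite *FGF1* without sharing exon bases. It was higher too, with a log2 fold change of 1.07 (adjusted p = 0.00503), and its counts summed to 33.3% of those of *FGF1* in siNT and to 11.8% in siLTBP2. Whether the reads were counted by strand is not stated in the sources. The 3 tested genes whose log2 CPM followed that of *FGF1* most closely over the 6 libraries were *MRPS10* (Pearson r = 0.999), *MBNL1* (0.999) and *GPAT3* (0.998), with log2 fold changes of 0.46, 0.79 and 1.69. These r values are a description, since the 6 libraries fall into the 2 groups.

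*FGF5* (ENSG00000138675, chr4:80266639-80336680, plus strand, 3 exons), a ligand best known for ending the growth phase of hair follicles, was at 46.2, 42.7 and 56.3 CPM in siNT. In siLTBP2 it was at 112, 128 and 176 CPM. The lowest siLTBP2 library was 1.99 times the highest siNT library, and the third replicate was again the highest in both groups. The mean went from 48.4 ± 7.04 to 139 ± 33.6 CPM (SD, n = 3), and the log2 fold change was 1.52 (95% interval 1.16 to 1.88, standard error 0.163, edgeR adjusted p = 0.000204), or 2.86-fold. The gene *CFAP299* overlaps 136 exon bases of *FGF5* on the same strand, but had only 0.604% of its counts.

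*FGF2* (ENSG00000138685, chr4:122826682-122898236, plus strand, 3 exons), the basic FGF that is added to many cell cultures as a mitogen, changed less. It was at 157, 152 and 180 CPM in siNT and at 197, 199 and 262 CPM in siLTBP2. The groups did not overlap, although the gap between them was small compared with the spread of the siLTBP2 libraries. The log2 fold change was 0.43 (95% interval 0.16 to 0.70, standard error 0.122, edgeR adjusted p = 0.0317), or 1.35-fold. This call depended on single libraries. Without the first or the second siNT library the adjusted p was 0.0993 or 0.109, and without the second or the third siLTBP2 library it was 0.0512 or 0.0812, with log2 fold changes of 0.40, 0.38, 0.49 and 0.29. *NUDT6*, which shares 804 exon bases with *FGF2* on the opposite strand, had 3.38% of its counts, and its log2 fold change was 0.39 (adjusted p = 0.0893).

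*FGF7* (ENSG00000140285, chr15:49423237-49488775, plus strand, 4 exons), also called keratinocyte growth factor, went the other way. Its level was 46.1, 56.8 and 55.3 CPM in siNT and 27.0, 27.5 and 32.4 CPM in siLTBP2, so that the groups did not overlap. The mean fell from 52.7 ± 5.78 to 28.9 ± 2.97 CPM (SD, n = 3), to 54.9% of the siNT level. The log2 fold change was -0.86 (95% interval -1.11 to -0.62, standard error 0.112, edgeR adjusted p = 0.000547). *FGF7* was not deregulated by the thresholds above because the change was under 2-fold. Human chromosomes carry partial copies of *FGF7*. The 8 pseudogenes named *FGF7P* in the table had 10 to 23 counts in all per library, against 1175 to 2983 for *FGF7*, and reads shared with them could not be assigned with certainty.

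*FGF10* (ENSG00000070193), the other FGF of the FGFR2 splice form found in epithelia, had 0 counts in all 6 libraries, which allows a level of up to the 0.0556 to 0.0688 CPM given above. Of 13 other secreted FGFs, 6 had 0 counts in every library and only *FGF18* and *FGF20* could be tested. Their means were 0.0881 and 0.350 FPKM in siNT, and neither passed the test, with log2 fold changes of 0.44 (adjusted p = 0.483) and -0.10 (adjusted p = 0.9). Among the 4 intracellular FGF homologous factors, which are not secreted and do not act through FGF receptors, only *FGF13* was tested (log2 fold change -0.26, adjusted p = 0.145).

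**Figure D2:**
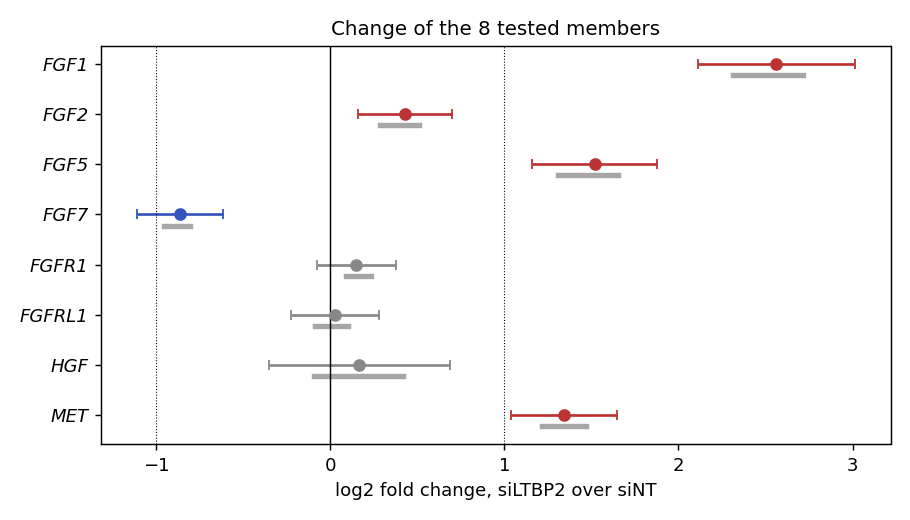
log2 fold change of the 8 tested genes, siLTBP2 over siNT, from edgeR's quasi-likelihood fit. Points are the estimates and thin bars their 95% intervals, in red for higher, blue for lower and grey for an adjusted p of 0.05 or above; the thick grey bar under each is the range of the estimate when each library was left out in turn, and dotted lines mark a 2-fold change. The intervals of FGF1, FGF5 and MET lie above 1, that of FGF7 spans -1, and those of FGFR1, FGFRL1 and HGF span 0.

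Per length, the ligand mRNAs were in another proportion after silencing. In siNT the order was *FGF2* at 24.0 ± 2.19 FPKM, then *FGF5* at 8.12 ± 1.18 and *FGF7* at 8.09 ± 0.888 FPKM, which did not differ beyond their spread, and *FGF1* at 0.792 ± 0.136 FPKM (SD, n = 3). In siLTBP2 *FGF2* was still first, at 32.3 ± 5.38 FPKM, and *FGF5* second, at 23.3 ± 5.65 FPKM. *FGF1*, at 4.69 ± 1.31 FPKM, and *FGF7*, at 4.44 ± 0.457 FPKM, were then within their spread of each other.

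The summed level of the secreted FGFs was 39.2, 39.4 and 45.7 FPKM in siNT, and 56.3, 59.5 and 79.5 FPKM in siLTBP2, without overlap. The share of *FGF7* in this sum was 19.6% ± 2.20 in siNT and 6.90% ± 0.575 in siLTBP2, and that of *FGF1* was 1.90% ± 0.153 and 7.12% ± 0.590 (SD, n = 3). *FGF5* made up 19.5% ± 1.26 and 35.5% ± 2.00, and *FGF2* 57.8% ± 1.22 and 49.7% ± 1.63. For each of these 4 ligands the shares in the siLTBP2 libraries did not overlap those in the siNT libraries. The ratio of *FGF5* to *FGF7* per length was 0.824 to 1.11 in siNT and 4.54 to 5.96 in siLTBP2. The ratio of *FGF1* to *FGF7* was 0.0827 to 0.112 in siNT and 0.900 to 1.24 in siLTBP2.

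**Figure D3:**
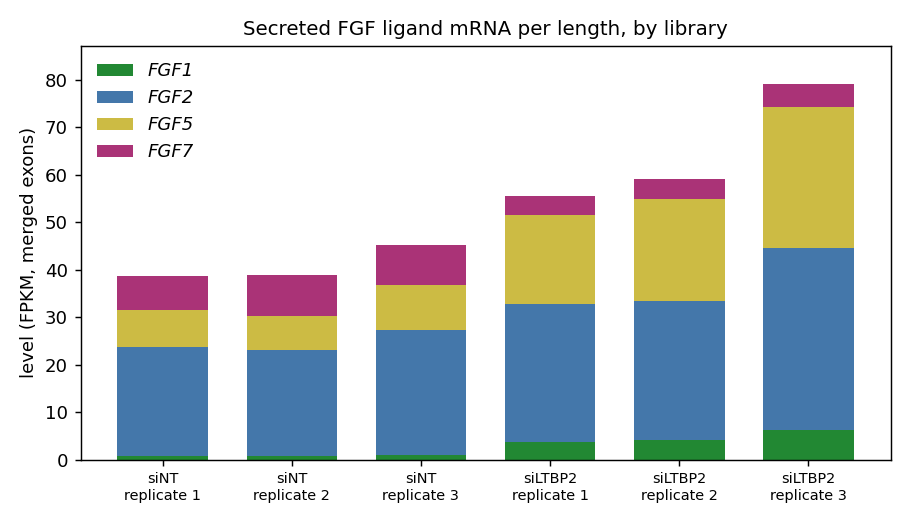
Level per length (FPKM over merged exons) of the 4 secreted FGF ligands with the highest levels, stacked for each library on an axis that starts at 0. FGF5 (yellow) and FGF1 (green) take more of the stack in the 3 siLTBP2 libraries, and FGF7 (purple) takes less.

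None of the 4 FGF receptors that could be tested, *FGFR1*, *FGFRL1*, *FGFR3* and *FGFR4*, passed edgeR's test. *FGFR1* (ENSG00000077782, chr8:38400215-38468834, minus strand, 18 exons), the main FGF receptor kinase of mesenchymal cells, was at 259, 211 and 224 CPM in siNT and at 278, 253 and 237 CPM in siLTBP2. The ranges overlapped, and the log2 fold change was 0.15 (95% interval -0.08 to 0.38, edgeR adjusted p = 0.357). *FGFRL1* (ENSG00000127418, chr4:1009936-1026898, plus strand, 7 exons) encodes a receptor that binds FGFs but lacks the kinase domain. It was at 74.3, 57.8 and 76.1 CPM in siNT and at 68.7, 66.1 and 77.4 CPM in siLTBP2, again with overlap. Its log2 fold change was 0.03 (95% interval -0.23 to 0.28, edgeR adjusted p = 0.902), with a sign that turned under scaling by total counts. The intervals leave room for changes of these receptors up to the bounds given. *FGFR2* (ENSG00000066468) had 2 counts in the second siLTBP2 library and 0 in the other 5, below the limit of 3 counts.

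Of the other receptors, *FGFR4* was at 13.3 ± 4.66 CPM (SD, n = 3) with siNT and at 13.4 ± 5.81 CPM with siLTBP2, and *FGFR3* had 1.03 ± 0.0457 and 1.01 ± 0.226 CPM. Neither passed the test (adjusted p = 0.99 and 0.967), and neither *KL* nor *KLB*, the Klotho co-receptors of endocrine FGFs, could be tested. Which receptor was the most abundant per length depended on the length used. Over merged exons, *FGFRL1* took 49.2% and *FGFR1* 41.4% of the summed receptor level in siNT, whereas over the longest annotated transcript they took 31.3% and 61.1%, because the merged exons of *FGFR1* span 17201 bases and its longest transcript 6216.

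*MET* (ENSG00000105976, chr7:116672196-116798377, plus strand, 21 exons) was at 117, 94.1 and 134 CPM in siNT and at 266, 274 and 336 CPM in siLTBP2. As for *FGF5*, the lowest siLTBP2 library was 1.99 times the highest siNT library. The mean rose from 115 ± 20.1 to 292 ± 38.5 CPM (SD, n = 3), and the log2 fold change was 1.34 (95% interval 1.04 to 1.65, standard error 0.138, edgeR adjusted p = 0.000156), or 2.54-fold (2.06 to 3.13). It ranked 130 by p-value among all genes.

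*HGF* (ENSG00000019991, chr7:81699010-81770438, minus strand, 18 exons), the ligand of MET, had the highest mean level per length of the 10 genes in both groups. In the third siLTBP2 library, however, *MET* was above it, at 46.6 against 44.6 FPKM. In CPM it was at 709, 671 and 488 CPM in siNT and at 935, 728 and 435 CPM in siLTBP2. The siLTBP2 libraries spread around those of siNT, and the third replicate was the lowest in both groups, unlike for *FGF1*, *FGF2*, *FGF5* and *MET*. The log2 fold change was 0.17 (95% interval -0.35 to 0.68, standard error 0.234, edgeR adjusted p = 0.674), the widest interval among the 8 genes, and it fell below 0 without the first siLTBP2 library (-0.10). Per length, *HGF* was at 63.9 ± 12.1 FPKM and *MET* at 15.9 ± 2.78 FPKM in siNT, and in siLTBP2 they were at 71.7 ± 25.7 and 40.5 ± 5.32 FPKM (SD, n = 3). The ratio of *HGF* to *MET* was 4.48, 5.29 and 2.696 in siNT, and 2.60, 1.97 and 0.959 in siLTBP2. The groups came close to each other without overlapping. The size of this ratio depends on the length used. Over the longest annotated transcript, the means of *HGF* and *MET* were 107 and 16.7 FPKM in siNT, and 120 and 42.5 FPKM in siLTBP2.

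A list of proteases that can cut the HGF precursor, and of their inhibitors, held 9 genes. Only *PLAU* and *PLAT*, the urokinase and tissue type plasminogen activators, could be tested. The rest of the list, other proteases among them, had at most 9 counts in any library. The cutting of HGF itself was not measured. *PLAU* rose from 657 ± 135 to 1548 ± 165 CPM (log2 fold change 1.24, edgeR adjusted p = 0.000414). *PLAT* fell from 546 ± 127 to 295 ± 105 CPM (log2 fold change -0.89, edgeR adjusted p = 0.0326), a call that was lost without the first or the second siNT library (adjusted p = 0.0869 and 0.128) and with DESeq2 (adjusted p = 0.0517). The HGF-like ligand *MST1* and its receptor *MST1R* were under 1 CPM in both groups and did not pass the test.

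Downstream of the receptors, the genes were counted in lists. The lists too were chosen with earlier results of these data known, so their counts are a description beside the shares of all tested genes. The 10 pathway lists held 118 genes, of which 81 were tested, 21 were higher and 13 lower, beside 9.76% and 9.51% of all tested genes. The list of 16 feedback inhibitors also held general inhibitors of receptor signalling, *CBL*, *CBLB* and *PTPN1* among them. Its counts are thus not those of ERK-induced genes alone. All 16 were tested, and 8 of them were higher and 4 lower (9.76% and 9.51% of all tested genes), with a median log2 fold change of 0.42. The higher ones with the smallest p were 3 MAP kinase phosphatases and *LRIG1*, which limits several receptor tyrosine kinases including MET. *DUSP6*, the phosphatase of cytoplasmic ERK, went from 38.1 ± 4.73 to 82.7 ± 2.71 CPM (log2 fold change 1.12, edgeR adjusted p = 8.04e-05). *DUSP5*, its nuclear counterpart, went from 9.97 ± 1.44 to 34.0 ± 11.9 CPM (1.77, adjusted p = 0.000398), and *DUSP4* had a log2 fold change of 0.93 (adjusted p = 0.00101). *LRIG1* went from 19.1 ± 1.96 to 40.3 ± 3.17 CPM (1.08, adjusted p = 0.000145).

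The Sprouty genes, inhibitors of RAS signalling that FGF itself induces, changed in both directions. *SPRY2* rose from 31.5 ± 8.35 to 67.9 ± 20.7 CPM (log2 fold change 1.11, edgeR adjusted p = 0.00637) and *SPRY4* from 78.3 ± 13.3 to 133 ± 16.9 CPM (0.76, adjusted p = 0.0027), while *SPRY1* fell from 56.9 ± 3.95 to 37.1 ± 8.45 CPM (log2 fold change -0.62, adjusted p = 0.0148). The other lower genes were *CBL* and *CBLB*, ubiquitin ligases that send activated receptors such as MET to degradation, and the phosphatase *PTPN1*. Their log2 fold changes were -0.61 (adjusted p = 0.00112), -0.96 (adjusted p = 0.0024) and -0.30 (adjusted p = 0.0333). The call of *PTPN1* was lost when any 1 library other than the second siNT library was left out (adjusted p = 0.0571 to 0.118).

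Of the 10 transcription factors and other targets that ERK induces, all were tested, 5 were higher and 0 lower (9.76% and 9.51% of all tested genes), with a median log2 fold change of 0.49. The count of 0 is by edgeR's quasi-likelihood test, and it was also 0 by the likelihood ratio test and by DESeq2, while 1 gene, *EGR1*, was lower at an unadjusted p below 0.05 (log2 fold change -0.45, adjusted p = 0.148) and by the adjusted p with no filter on low counts or without the second siLTBP2 library. With the replicate block 2 genes, *EGR1* and *PHLDA1*, were lower. The ETV factors, which the ERK cascade induces, were all higher. Which receptor or ligand lay behind this was not tested, and the activity of ERK was not measured. *ETV1* went from 18.3 ± 2.98 to 51.6 ± 5.72 CPM (log2 fold change 1.49, edgeR adjusted p = 7.53e-05), *ETV4* from 21.2 ± 4.94 to 46.6 ± 0.333 CPM (1.14, adjusted p = 0.000541) and *ETV5* from 63.5 ± 11.5 to 118 ± 4.89 CPM (0.89, adjusted p = 0.000814). *FOSL1*, a component of AP-1, had a log2 fold change of 0.75 (adjusted p = 0.0185), which did not pass without the first or the second siNT library (adjusted p = 0.0663 and 0.0674). The other higher gene was *CCND1*, cyclin D1, with a log2 fold change of 0.45 (adjusted p = 0.0348), which did not pass without the second or the third siNT library or the first or the second siLTBP2 library (adjusted p = 0.0684 to 0.123). Without the second siNT library the count of higher genes was 3 in place of 5.

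All 22 adaptors and kinases between receptor and nucleus were tested. Of these, 3 were higher and 2 lower, near the shares of all tested genes (9.76% and 9.51%), and the median log2 fold change was 0.03. *MAP2K1*, a kinase of the cascade, had a log2 fold change of 0.53 (edgeR adjusted p = 0.00994), and *STAT3* of 0.33 (adjusted p = 0.0348). The adaptor *SHC1* fell from 366 ± 8.87 to 215 ± 14.9 CPM (log2 fold change -0.77, edgeR adjusted p = 0.000258), and the exchange factor *SOS1* had a log2 fold change of -0.32 (adjusted p = 0.0462). The calls of *STAT3* and *SOS1* were lost without 1 of several libraries, with adjusted p up to 0.129 and 0.161.

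Among the genes of heparan sulfate, the co-receptor of FGFs, 20 of 29 were tested, 4 were higher and 5 lower (9.76% and 9.51% of all tested genes), with a median log2 fold change of -0.06. The core protein *SDC1* went from 80.7 ± 9.94 to 160 ± 22.6 CPM (log2 fold change 0.99, edgeR adjusted p = 0.000414) and *SDC2* from 103 ± 5.28 to 76.3 ± 6.47 CPM (-0.43, adjusted p = 0.00753). The sulfotransferase *HS3ST3A1* was the only deregulated gene of the list, with a log2 fold change of 1.09 (adjusted p = 0.000664), and *NDST1* and *HS6ST1*, which sulfate other positions, were lower, with -0.79 (adjusted p = 0.000351) and -0.51 (adjusted p = 0.00796). The epimerase *GLCE* and the chain-starting enzyme *EXTL3* had log2 fold changes of 0.52 (adjusted p = 0.00257) and 0.34 (adjusted p = 0.0178; lost without the second or the third siNT or the second siLTBP2 library, at 0.0519, 0.055 and 0.0746), and *HPSE*, the heparanase that cuts the chains, of -0.72 (adjusted p = 0.00181). The remaining lower gene was the core protein *SDC3* (-0.66, adjusted p = 0.0114). Of 9 FGF binding proteins and receptor partners, 4 were tested, and *FIBP*, which binds FGF1 inside the cell, was lower with a log2 fold change of -0.44 (adjusted p = 0.00604).

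**Figure D4:**
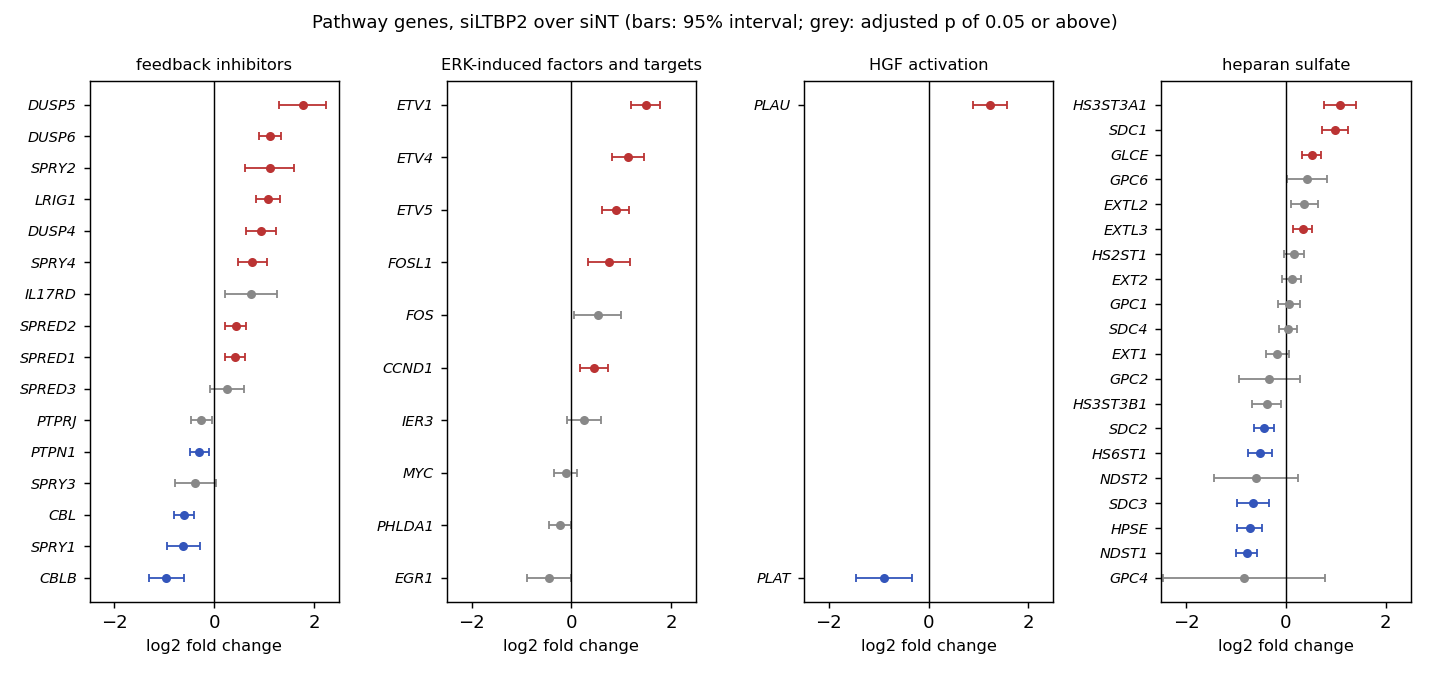
log2 fold change, siLTBP2 over siNT, of the tested genes of 4 pathway lists. Points are edgeR estimates and bars their 95% intervals, in red for higher, blue for lower and grey for an adjusted p of 0.05 or above. The ETV genes and 3 DUSP genes are in the upper part of their lists, PLAU and PLAT lie on opposite sides of 0, and the heparan sulfate genes are on both sides.

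A 7-base word, GCACCCA, was looked for in the 3′ UTRs of the 10 genes and of *LTBP2*. It was picked from earlier results of these same data, so its presence is a description and tests nothing. It was present once in the 3′ UTRs of *FGF5*, *HGF*, *FGFR1* and *LTBP2* and absent from those of the other 7 genes, *FGF7* included. Of the 3 tested carriers among the growth factor genes, *FGF5* was higher and *HGF* and *FGFR1* did not pass the test. The sites of *HGF* (position 24 of its 3′ UTR), *FGF5* (position 3962) and *LTBP2* (position 826) are shown with the word in capitals, from canonical GENCODE transcripts on GRCh38.
HGF site: gtgtgtctgaaGCACCCAccaatacaact
FGF5 site: gctggtgtgctGCACCCAccaacctgtca
LTBP2 site: catgggatacaGCACCCAtctacaaagac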

How the data were processed

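RNA sequencing of 6 libraries of CCD18Co fibroblasts, 3 siNT and 3 siLTBP2, was analysed. The authors depleted ribosomal RNA, made stranded libraries, aligned reads to GRCh38 with STAR and deposited raw read counts per gene from HTSeq; the submitters' processing notes name STAR 2.7.1a and HTSeq 0.11.2. The sources state neither the strand setting nor the Ensembl release. Of 60663 gene identifiers, 60462 were in GENCODE 44, which gave lengths and positions.

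Counts were filtered with filterByExpr, scaled by TMM and tested with edgeR 4.0.16 in R 4.3.3 (glmQLFit and glmQLFTest, two-sided, no block) over all genes, with Benjamini-Hochberg adjustment. Standard errors were derived from the log2 fold change and its F statistic. Steps were tested on simulated data. FPKM and shares were computed from the TMM-scaled counts and are given without a test. Limits from counts cover counting error only. Between libraries of one group the chi-square per degree of freedom was 24.6 to 48.1, far above sampling noise.

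The members and the gene lists were chosen with earlier results of these data known. Named genes were *LTBP2*, the members, up to 4 genes per direction and list by smallest p at an adjusted p below 0.05, any deregulated list gene, and the 3 genes of at least 1 CPM most like the member of smallest p. *FGF13*, *FGF18*, *FGF20*, *FGFR3*, *FGFR4*, *KL*, *KLB*, *MST1*, *MST1R*, *EGR1*, *PHLDA1*, *CCND1*, *SPRY4*, *SDC3* and the overlapping genes were named after their values were seen. The values of 1 gene that the rule names are not reported here. Alternatives were the likelihood ratio test that the study used, DESeq2 1.42.0, scaling by RLE, by upper quartiles or by total counts, no filter, at least 1 CPM in 3 libraries, the replicate block, an adjusted p below 0.01, the longest transcript as length, and leaving out each library.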

Additional observations from a re-analysis of the deposited data

How the results depend on the processing

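Under 14 alternatives, *FGF1*, *FGF5*, *FGF7*, *MET* and *LTBP2* kept their direction and an adjusted p below 0.05, with log2 fold changes of 2.31 to 2.72, 1.31 to 1.65, -0.96 to -0.81, 1.22 to 1.47 and -1.89 to -1.61. *FGF2* passed in 10 of 14. The sign of *FGFRL1* turned with total counts (-0.0069) and, leaving out each library in turn, its log2 fold change was -0.0888 to 0.1009. That of *HGF* was -0.0964 to 0.4199. The cause was not tested. With 0.01 as the threshold on the adjusted p, 3 genes were higher and 1 lower. With the longest transcript as length, *FGF7* made up 22.3% of the ligand level in siNT and 7.86% in siLTBP2, and *FGF2* 53.9% and 46.2%, since the lengths differ. Same-numbered libraries deviated together with r of 0.298, 0.083 and 0.428 for replicates 1 to 3. Between libraries of different number r was -0.391 to 0.103, a range that includes the value of replicate 2. Deviations from the mean of 3 libraries cancel out within a group, which partly fixes this contrast in advance. An effect shared by replicate number is possible but cannot be read from these values, and the main fit, which has no block, does not account for it. With the replicate block 4 of the members were higher and 1 lower, as without it, and *FGF2* had a log2 fold change of 0.42. The pathway lists then had 28 higher and 19 lower genes. The share of all tested genes that passed with the block was not computed, so no excess can be read from these counts. Of 406 values of 29 named pathway genes, 384 kept direction and call and 22 lost the call. No scaling moved the median of all genes by over 0.1. With 3 libraries per group, the interval of *HGF* is wide (standard error 0.234). Those of *FGFR1* and *FGFRL1* are among the narrower of the 8 genes (standard errors 0.103 and 0.115). Genes of few counts could not be tested.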
